A study of Rattus norvegicus with 10 samples.

Results

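Magoh, Pop7, Cse1l and Med16 encode 4 nuclear proteins that act at successive points in the life of an RNA or a protein cargo. They were found on the arrays through the RefSeq accessions that the scanner files pair with Agilent catalogue probes: NM_001100536 for Magoh, NM_001105918 for Pop7, NM_001108607 for Cse1l and NM_001106768 for Med16. Each gene had 1 probe, printed as 10 spots on every array. They are 4 of the 30 genes that could be named among 50 catalogue probes, on a custom array of 38804 noncontrol probes. The rule that finds their probes uses accessions and no measured value, though the genes were picked with earlier results of these data known.

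The RNA came from lung tissue of male Wistar rats aged 8 weeks. The 5 LPS samples were from rats in which lipopolysaccharide (LPS), a cell wall toxin of Gram-negative bacteria, had been used to bring on septic shock, and the 5 control samples were labelled only as control. The sources used here do not give the dose, route and time of LPS or what the controls received. The labels do not tie each sample to its own animal, so the p-values reflect spread between samples, which may be technical in part.

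Genes in a cell nucleus are copied into RNA by RNA polymerase II with the help of Mediator, a large complex that carries signals from DNA-bound transcription factors to the polymerase. The new RNA is spliced, and splicing leaves a mark near the exon junctions, the exon junction complex, that follows the RNA into the cytoplasm. Small RNAs are trimmed by enzymes made of RNA and protein, and proteins needed in the nucleus are carried in by importins that must be sent back for the next round. Med16 is a subunit of the tail of Mediator, the part that meets transcription factors. Magoh is a core subunit of the exon junction complex, Pop7 a protein subunit shared by RNase P, which trims transfer RNA precursors, and RNase MRP, which acts on ribosomal RNA precursors, and Cse1l the exportin that returns importin alpha to the cytoplasm.

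Of these 4 genes, 1 passed the test between LPS and control lungs, Med16, and its signal was lower in the LPS lungs. Of all tested probes 33% passed and 18% passed as lower, so 1 of 4 is no more than the arrays gave in general. The call of Med16 was lost in 4 other fits: with the scan of the arrays, which nearly coincides with group, as a fixed or a random block (limma adjusted p = 0.501 and 0.163), in the 1 scan that held both groups, and without scaling. Its level was -0.997 ± 0.25 (SD, n = 5) in controls and -1.60 ± 0.06 (SD, n = 5) after LPS, in log2 units relative to the 75th percentile of the spot signals of the same array. Magoh, Pop7 and Cse1l did not pass. Set against each of these genes on the same array, Med16 was lower in LPS lungs in every pairing, by 1.53- to 1.77-fold. All 3 pairings passed an exact permutation test that takes no account of scan. How many other probes would pass that test was not counted. In limma without a block, 25.9% of all probes set against Magoh passed, 35.3% against Pop7 and 27.1% against Cse1l. With scan as a fixed block in limma 1 of the 3 pairings passed, that with Pop7, where 27.9% of all probes set against Pop7 passed. Fitted singly with that block, Med16 was at -0.18 and Pop7 at 0.47, LPS minus control. In bulk tissue, fewer cells of a type and less RNA per cell cannot be told apart.

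Facts of the whole set of arrays bear on these values. Between 90.1% and 93.8% of the spots on an array were well above background, and no spot was saturated. The 75th percentile of signal was 365.9 to 474 on LPS arrays and 264.9 to 436 on controls. The arrays fell into 3 scans, as the headers of the scanner files stamp them: scan 1 held 2 LPS arrays, scan 2 held 4 controls, and scan 3 held 3 LPS arrays with control replicate 20. Scan and group can therefore be compared only through control replicate 20, whose values stand beside each result. None of the 11 lung markers, 12 markers of blood and leukocytes and 2 each of brain and liver listed for the purpose had a named probe, so the tissue label was not checked against them.

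All 400 spots of the 4 genes over the 10 arrays were well above background, and 5 spots, each of Pop7, were left out as outliers. The SD between spots of 1 gene on 1 array was 0.055 to 0.17 on the log2 scale, which gives a standard error of the array's value of 0.017 to 0.054. Levels of different probes were not compared with each other, since each probe has its own brightness.

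Med16 had scaled levels of -1.04, -0.84, -0.90 and -0.79 on control replicates 15, 16, 17 and 18, and -1.41 on control replicate 20. The LPS replicates 1, 3, 5, 6 and 7 were at -1.61, -1.50, -1.67, -1.63 and -1.60. The groups did not overlap: every LPS array lay below every control, with LPS replicate 3 and control replicate 20 the nearest pair. Of all 36020 tested probes, 16.7% had groups that did not overlap in either direction, and 9.6% had all LPS arrays below all controls.

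The log2 difference of Med16, LPS minus control, was -0.60 ± 0.13 (SE), with a 95% interval from -0.89 to -0.32 and an adjusted p of 0.00611 in the limma fit over all tested probes. The control level was 1.52-fold the LPS level. The threshold was 0.05 on the adjusted p, and a call was common on these arrays. Across all tested probes 12% had a lower log2 difference than Med16, and the median log2 difference was -0.054.

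After scaling, Med16 varied little within the LPS group. Its SD over the 5 LPS arrays was 0.06, and 2.93% of tested probes had a smaller one. The LPS arrays of scan 1 averaged -1.61 and those of scan 3 -1.59. Before scaling, the signal of Med16 on LPS arrays ran from 120.2 to 155.

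**Figure D1:**
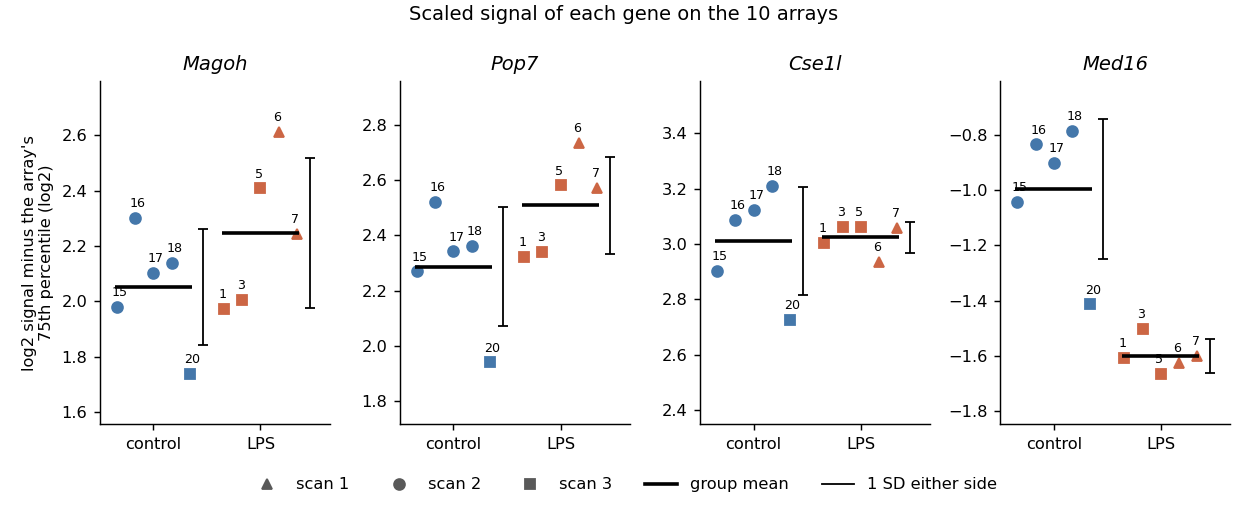
Scaled signal of Magoh, Pop7, Cse1l and Med16 on each array (y axis, log2 signal minus the 75th percentile of the same array; the span is the same in each panel and the position is not), with the replicate number at each point, symbols for the scan, group means as thick lines and 1 SD either side as thin bars (n = 5 per group). All LPS points of Med16 lie between -1.67 and -1.50, below the controls, while the groups of the other genes overlap.

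Control replicate 20 moved with this result. It was the lowest control for all 4 genes, as it was on 44.3% of tested probes, and it was the lowest of all 10 arrays for Magoh, Pop7 and Cse1l, as it was on 19.7%. For Med16 it stood 0.18 above the mean of the LPS arrays of its own scan and well below the controls of scan 2, whose mean was -0.89. Without it the log2 difference of Med16 was -0.71, with a limma adjusted p of 7.76e-05, in a comparison where 54.6% of probes were called. No scan then held both groups, so LPS and scan cannot be told apart in that fit.

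With scan as a fixed block, which leaves scan 3 to carry the comparison, the difference of Med16 shrank to -0.18 ± 0.15 (SE) and its adjusted p in limma was 0.501. A random block for scan gave -0.37 ± 0.15 (SE) and an adjusted p of 0.163 in limma. None of the 4 genes was called in either fit, where 9.94% and 8.68% of all tested probes were. In a limma fit of scan 3 alone, also with none of the 4 called and 2.29% of probes called, the adjusted p of Med16 was 0.591. The difference of Med16 kept its sign in these fits and its call was lost. Since every LPS array lay below every control, the sign within scan 3 could not have turned.

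The signals before scaling show how much rests on the scaling. As deposited, Med16 read 162, 148, 158, 166 and 164 on control replicates 15, 16, 17, 18 and 20, and 120.2, 142, 148, 154 and 155 on LPS replicates 1, 3, 5, 6 and 7. These groups overlapped, with geometric means of 159 in controls and 143 in LPS lungs. Without scaling Med16 was at -0.15 ± 0.13 (SE), LPS minus control, and its adjusted p in limma was 0.366.

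Brightness of the arrays went with scan as well as with group. The 75th percentile was at most 333 in scan 2 and at least 365.9 in the other scans, with control replicate 20 at 436. Without scaling the median log2 difference of all tested probes, LPS minus control, was 0.40. Relative to the median of each array, the difference of Med16 was -0.57. Before scaling, the mean of Med16 was thus slightly lower in the LPS group, where most probes read higher, but its groups overlapped and it did not pass. This did not hold array by array. Control replicate 20, with its 75th percentile at 436, read 164 for Med16, and LPS replicate 1, at 365.9, read 120.2. For the signal range of Med16, the 2117 tested probes within 0.25 log2 units of its mean scaled level were set beside it. Their median log2 difference was -0.026, with quartiles of -0.35 and 0.31, and 11.6% of them had a lower value than Med16.

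**Figure D2:**
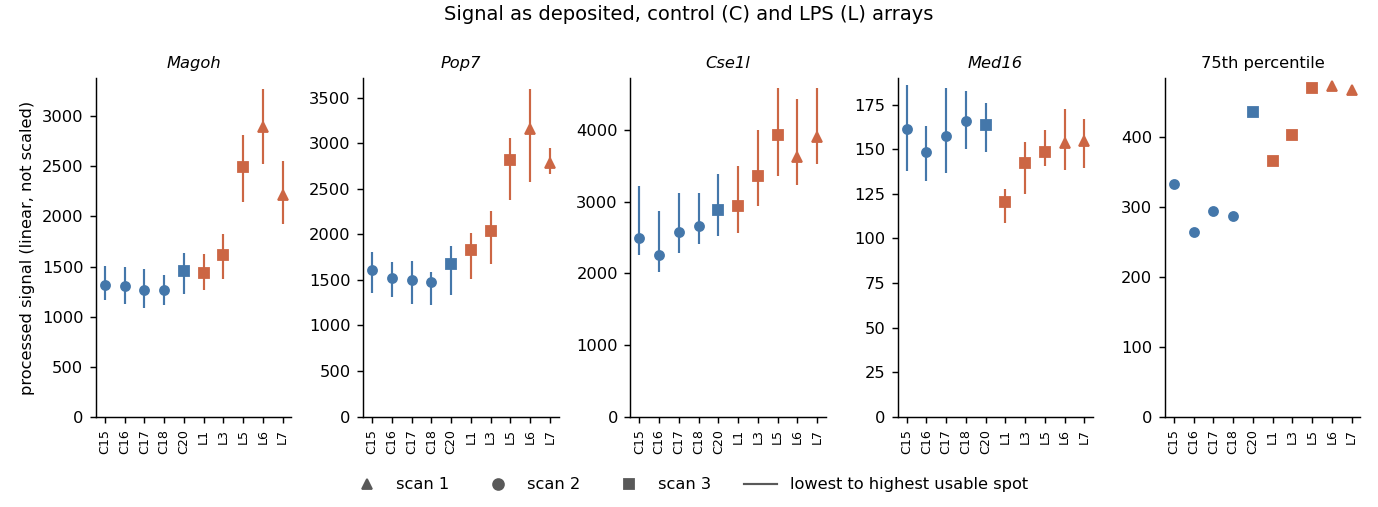
Processed signal as deposited (y axis, linear, starting at 0) on each control (C) and LPS (L) array by replicate number, as the geometric mean of the usable spots with the range of those spots, and the 75th percentile of all noncontrol spots in the last panel. Magoh, Pop7 and Cse1l have higher group means on the LPS arrays, as the 75th percentile does, while Med16 reads 120.2 to 155 there against 148 to 166 on the controls.

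Magoh pairs with Rbm8a in the core of the exon junction complex, which takes part in RNA localization and in the decay of messages with a premature stop. Its scaled levels were 1.98, 2.30, 2.10, 2.14 and 1.74 on control replicates 15, 16, 17, 18 and 20. On LPS replicates 1, 3, 5, 6 and 7 they were 1.97, 2.004, 2.41, 2.61 and 2.24. The groups overlapped, and LPS replicates 5 and 6 alone exceeded every control. Magoh was 2.05 ± 0.21 (SD, n = 5) in controls and 2.25 ± 0.27 (SD, n = 5) in LPS lungs.

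The log2 difference of Magoh was 0.20 ± 0.15 (SE), with a 95% interval from -0.14 to 0.53 and a limma adjusted p of 0.337. The interval holds 0 and reaches 0.53, so no rise of Magoh was detected and a modest one is not excluded. Without control replicate 20 the difference was 0.12. Within scan 3 it was 0.39, and the fixed block for scan gave an adjusted p of 0.29 in limma. Rats also carry Magohb, a closely related copy of Magoh, and whether the probe separates their RNAs was not tested, because its sequence was not used here.

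Pop7 binds RNA as part of both RNase P and RNase MRP. Its scaled levels were 2.27, 2.52, 2.34, 2.36 and 1.94 on control replicates 15, 16, 17, 18 and 20. LPS replicates 1, 3, 5, 6 and 7 had levels of 2.32, 2.34, 2.58, 2.73 and 2.57. LPS replicates 5, 6 and 7 lay above every control, and replicates 1 and 3 lay among them. Pop7 was 2.29 ± 0.21 (SD, n = 5) in controls and 2.51 ± 0.18 (SD, n = 5) in LPS lungs.

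The log2 difference of Pop7 was 0.22 ± 0.13 (SE), with a 95% interval from -0.072 to 0.52 and a limma adjusted p of 0.217. Without control replicate 20 it was 0.14. Within scan 3 it was 0.47, and the fixed block for scan gave an adjusted p of 0.104 in limma. A rise of Pop7 was thus not detected at the adjusted threshold, and its interval reaches 0.52. With scan as a fixed block the interval ran from 0.097 to 0.85, and as a random block from 0.044 to 0.71. Intervals are not adjusted for the number of probes.

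Cse1l binds importin alpha together with the loaded form of Ran, the small enzyme whose gradient gives nuclear transport its direction. Its scaled levels were 2.90, 3.09, 3.12, 3.21 and 2.73 on control replicates 15, 16, 17, 18 and 20. The LPS replicates 1, 3, 5, 6 and 7 gave 3.005, 3.06, 3.06, 2.94 and 3.06. All LPS arrays lay inside the range of the controls. Cse1l was 3.01 ± 0.19 (SD, n = 5) in controls and 3.02 ± 0.05 (SD, n = 5) in LPS lungs.

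The log2 difference of Cse1l was 0.014 ± 0.12 (SE), with a 95% interval from -0.24 to 0.27 and a limma adjusted p of 0.937. Its sign turned without control replicate 20, to -0.057. Within scan 3 it was 0.32 higher in LPS, and the fixed block for scan gave an adjusted p of 0.225 in limma. Like Med16, Cse1l was even across the LPS arrays after scaling, and 2.13% of tested probes had a smaller SD there.

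Before scaling, Magoh, Pop7 and Cse1l read higher on the LPS arrays. The geometric mean signal went from 1319 to 2062 for Magoh, from 1552 to 2471 for Pop7 and from 2563 to 3531 for Cse1l. Without scaling all 3 passed the limma test, with adjusted p values of 0.0209, 0.0105 and 0.0234, where 41% of all tested probes were called and 37.4% were called as higher in LPS. Centred on the median of each array, their log2 differences were 0.23, 0.26 and 0.048, and none passed.

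**Figure D3:**
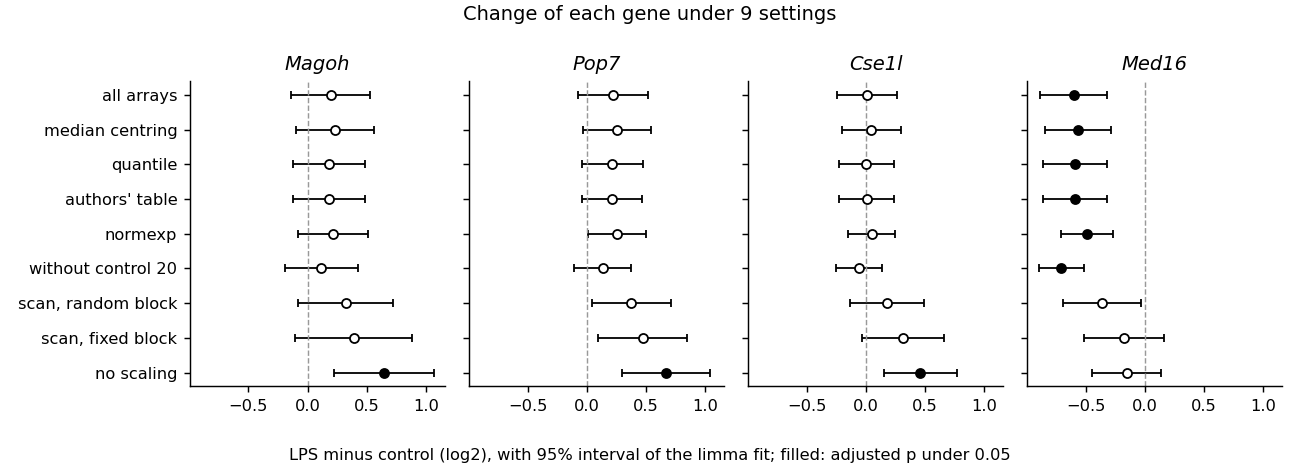
Log2 difference of each gene, LPS minus control (x axis), with the 95% interval of the limma fit under 9 settings (y axis); filled points passed an adjusted p of 0.05. Med16 lies below 0 in each setting and loses its call with scan as a block and without scaling, while the other genes pass without scaling and in no other setting drawn here.

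**Figure D4:**
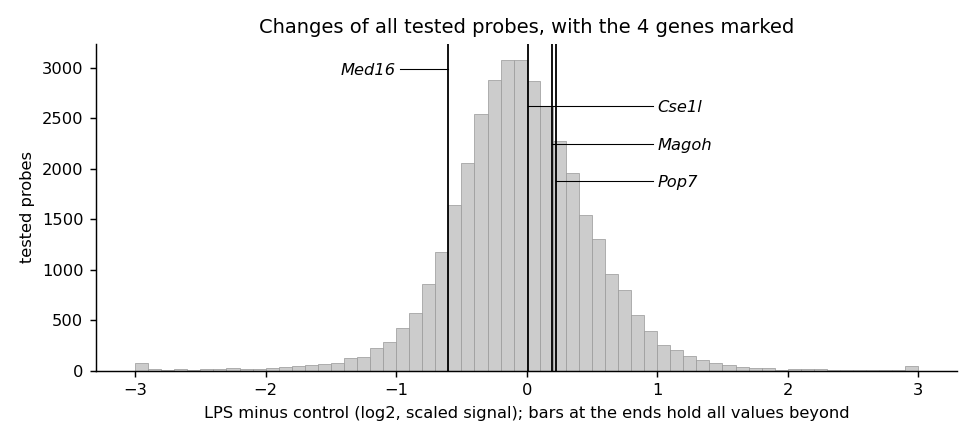
Number of tested probes (y axis) by log2 difference, LPS minus control (x axis, scaled signal, bins of 0.1, end bars holding all values beyond), with the 4 genes marked by lines. Med16 at -0.60 has 12% of probes below it, and Cse1l, Magoh and Pop7 have 55.5%, 69.4% and 71.2% below them.

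The difference between a pair of genes on the same array does not change when an array is scaled by a single constant, as it was here. Quantile normalization, which moves bright and dim probes unequally, can change it. For each of the 6 pairs this within-array difference was compared between 5 LPS and 5 control arrays by an exact 2-sided permutation test over arrays, whose smallest p is 0.00794. The test exchanges arrays across scans and so takes no account of scan, which is treated further on. The lower scaled signal of Med16 on LPS arrays was known when the pairs were set up. The 3 pairs with Med16 share its values, so they are not separate pieces of evidence. The tests show unequal change of 2 genes, not which of them changed.

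Med16 was lower in LPS lungs relative to Cse1l, the most even of the other genes. With the control mean set to 0, the within-array difference was 0.061, 0.084, -0.021, 0.0079 and -0.13 on control replicates 15, 16, 17, 18 and 20. It was -0.60, -0.56, -0.72, -0.55 and -0.65 on LPS replicates 1, 3, 5, 6 and 7. The groups lay far apart, and control replicate 20, though lowest of the controls, stood nearer to them than to any LPS array. The group difference was -0.62, with an exact permutation p of 0.00794 and 0.0159 after Benjamini-Hochberg adjustment over the 6 pairs. Within scan 3 it was -0.49.

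Relative to Magoh the group difference of Med16 was -0.80, and relative to Pop7 it was -0.82. Both had an exact permutation p of 0.00794, adjusted to 0.0159 over the 6 pairs. The LPS values ran from -1.19 to -0.46 against Magoh and from -1.07 to -0.56 against Pop7. The controls ran from -0.10 to 0.12 and from -0.073 to 0.13. The groups did not overlap in either pair. How many other probes set against Magoh or Pop7 had groups that did not overlap was not counted. Within scan 3 the differences were -0.57 and -0.65, from 3 LPS arrays against control replicate 20 alone.

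To take account of scan, every tested probe was set against 1 of the genes on the same array and fitted in limma over all probes, and the row of Med16 was read. This fit was added after the other values were seen. With scan as a fixed block Med16 passed against Pop7, at -0.65 ± 0.23 (SE) and an adjusted p of 0.0482, and 27.9% of all probes set against Pop7 passed. Against Cse1l it was at -0.49 ± 0.19 (SE) with an adjusted p of 0.0836, and against Magoh at -0.57 ± 0.33 (SE) with an adjusted p of 0.256. Neither passed, where 17.4% and 7.95% of probes did.

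With scan as a random block Med16 passed against Pop7 and Cse1l, at -0.74 and -0.56 with limma adjusted p values of 0.0146 and 0.0293, where 22.8% and 10.2% of probes passed. Against Magoh it was at -0.72 with a limma adjusted p of 0.0588, where 9.65% did. Without a block all 3 passed the same limma fit, where 25.9% of probes set against Magoh, 35.3% set against Pop7 and 27.1% set against Cse1l did. Med16 thus stayed the lower gene in each fit, and how many of its pairs passed depended on how scan was treated. Without a block and with the fixed block this direction was fixed in advance, since the groups did not overlap in these pairs.

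The signal range of the genes touches these pairs, since Med16 is a dimmer probe than the others. Over all arrays the tested probes within 0.25 log2 units of Magoh, Pop7 and Cse1l had median log2 differences of 0.047, 0.013 and 0.0031, against -0.026 near Med16. Within scan 3 those medians were 0.16, 0.16 and 0.18, against -0.058. The pairwise differences of Med16 were larger than these gaps between signal ranges, and the part the gaps play in them was not tested.

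The other 3 pairs did not pass. Magoh and Pop7 stayed together: the difference of Pop7 and Magoh changed by 0.026 between the groups, with an exact permutation p of 0.603, adjusted to 0.603. Over the LPS arrays it ran from -0.11 to 0.11 around the control mean, and over the controls from -0.033 to 0.055. The SD of Magoh within groups was 0.24 and that of Pop7 0.20, while that of their difference was 0.079. The difference between the genes thus varied less from array to array than either gene did.

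Cse1l relative to Pop7 differed by -0.21 between the groups, with an exact permutation p of 0.0794, adjusted to 0.119. Relative to Magoh it differed by -0.18, with an exact permutation p of 0.278, adjusted to 0.333. Single LPS arrays spread widely here, from -0.63 on replicate 6 to 0.099 on replicate 3 for Cse1l against Magoh. These values do not show that the genes of a pair responded alike.

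**Figure D5:**
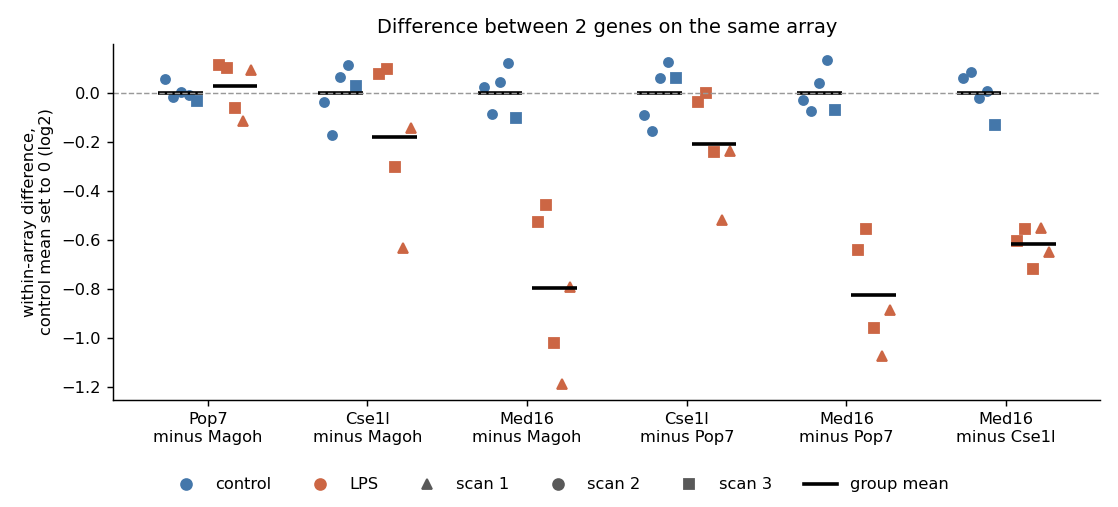
Within-array difference of each pair of genes (y axis, log2, with the control mean of the pair set to 0) on control and LPS arrays, with symbols for the scan and lines for group means (n = 5 per group). In the 3 pairs with Med16 every LPS array lies at -0.46 or lower and every control at -0.13 or higher, and in the other pairs the groups overlap.

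The genes with the most similar patterns were sought among the other 28 tested genes with a name, by the root mean square distance of gene-centred scaled levels over the 10 arrays. Nearest to Magoh was Pop7, at 0.072, and nearest to Pop7 was Magoh. The next for both was Ndfip2, an adaptor of ubiquitin ligases, at 0.14 from Magoh and 0.088 from Pop7. Unlike them it passed the test, narrowly, and was higher in LPS lungs, at 0.37 (limma adjusted p = 0.0499). Nearest to Cse1l were Ndfip1, at 0.12, and Pdcd10, at 0.13, which like Cse1l did not pass the test. Nearest to Med16 were Map2, which encodes a microtubule protein of neurons, at 0.13, and Dlg4, a scaffold protein of synapses, at 0.18. Both were lower in LPS lungs as well, Map2 at -0.67 (limma adjusted p = 0.00695) and Dlg4 at -0.59 (limma adjusted p = 0.0362). Distances of this kind take in the difference between the groups.

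Other genes of the same machineries were looked for by name. Lists of 12 genes of the exon junction complex and its partners, 11 subunits of RNase P and RNase MRP, 29 nuclear transport receptors and cofactors and 30 Mediator subunits each held 1 gene with a named probe, which was Magoh, Pop7, Cse1l and Med16 in turn. Whether partners such as Rbm8a, Kpna2 or Med24 moved with them was not analysed here.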

How the data were processed

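Each sample's RNA, labelled with Cy3, was read on its own 1-colour Agilent array, per the labels' protocols. The authors deposited spot intensity values as Agilent Feature Extraction 11.0.1.1 gave them, background-subtracted and detrended, per the file headers, with no normalization between arrays. They also deposited a table of log2 values, made with a tool the sources used here do not name, and whose columns share their quartiles. Its scale follows from the match to the scanner signals.

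Outlier and control spots were left out, log2 signals of 1 probe were averaged, and the 75th percentile of all noncontrol spots on the array was subtracted. Of 38804 probes, 126 lacked a usable spot on some array, and probes well above background on fewer than 5 arrays were left out. The other 36020 were fitted on group alone in R 4.3.3 with limma 3.58.1, and the 2-sided p-values were adjusted over all of them by Benjamini-Hochberg. This step was tested on simulated data without any effect of scan, so that test does not cover the part of scan in the real arrays. Pairs of genes were tested with SciPy 1.17.1 and, with scan as a block, in limma. Random blocks used statmod 1.5.0. Symbols came from the RefSeq table of assembly GRCr8, and no coordinates were used. Normexp, with an offset of 50, used the median signals of spot and background. The number of arrays limits the precision.

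The genes named were the 4 studied, the nearest 2 named genes to each, and any listed gene with a named probe. Genes and lists were chosen with earlier results of these data known. Alternatives covered scaling, background, filters, spots, the variance model, array weights, scan and leaving out each array.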

Additional observations from a re-analysis of the deposited data

How the results depend on the processing

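The log2 difference of Med16 kept its sign in all 25 alternatives, from -0.71 to -0.15. Where 1 array was left out or scan 3 carried the comparison, the sign was fixed in advance, since the scaled groups did not overlap. The alternatives reuse the same arrays and are not separate pieces of evidence. The call of Med16 was lost in 4 of them. These were the fits without scaling, at -0.15, with scan as a fixed block and with scan 3 alone, at -0.18, and with scan as a random block, at -0.37. Magoh, Pop7 and Cse1l passed only without scaling, at 0.64, 0.67 and 0.46. The sign of Cse1l turned with array weights, to -0.024, without control replicate 15, to -0.013, and without control replicate 20, to -0.057. Leaving out each array gave -0.71 to -0.55 for Med16, 0.10 to 0.26 for Magoh, 0.14 to 0.28 for Pop7 and -0.057 to 0.064 for Cse1l. The count of called probes, 11897, became 21951 with array weights, 3580 and 3127 with scan as a fixed and a random block, 826 in scan 3 alone, and 7898 to 19654 when each array was left out, with 7898 and 7926 without control replicates 17 and 18 and 19654 without control replicate 20. After normexp correction 17509 were called, 3546 of them higher in LPS, against 5425 of 11897 without it. Without scaling 13481 of 14773 were higher.

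By the exact permutation test 3 pairs, those with Med16, passed in all 15 alternatives run, which hold no block for scan, with differences from -0.89 to -0.54 and adjusted p values of 0.0159 to 0.0317. In the 10 that left out 1 array these passes were fixed in advance. Groups that do not overlap stay apart when any array is dropped. In limma fits added after seeing the data, 3 pairs passed without a block, 2 with scan as a random block and 1 with scan as a fixed block. The permutation test was not run within scan 3, where 3 arrays against 1 cannot reach the threshold. No paired analysis was possible because the groups share no replicate number in the labels.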

Other observations

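Among 24 sets of 5 values, over the 4 genes, the 6 pairs, the 75th percentile and the share of spots well above background in each group, none held an array whose gap to its neighbour exceeded 0.71 of the range of the set.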
